A study of Mus musculus with 5480 samples.

Results

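The genes described here are the 9 members of a set for MHC class I and the interferon response: H2-K1, H2-D1, B2m, Ifitm3, Bst2, Ifit1, Ifit3, Isg15 and Irf7. They were taken by name from the 18072 genes of the count table, which held all 9. The rule is a list of names and uses no measured value, though the list was drawn up with earlier results of these data known. They were followed through every labelled cell subtype, age and oxygen condition. MHC class I molecules display peptides from inside a cell to cytotoxic T cells and are sensed by natural killer cells. Each molecule joins a heavy chain, such as the products of H2-K1 and H2-D1, to the light chain encoded by B2m. Interferons act through cell surface receptors to switch on antiviral genes, and they also raise the transcription of class I genes. Among the products of such genes, Ifitm3 blocks entry of viruses from endosomes, Bst2 (tetherin) holds budding virions at the cell surface, Ifit1 binds foreign RNA, Ifit3 acts with Ifit1, Isg15 is a ubiquitin-like modifier, and Irf7 is a transcription factor that amplifies interferon production.

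The study profiled single cells sorted from the distal lung of mice, mainly a mesenchymal sort, with a plate-based method in which Tn5 transposase made the libraries. It had 10 mice in 5 groups, each of 1 female and 1 male: embryonic day 18.5 (E18.5), postnatal day 1 (P1), P7 and P21, all labelled as normal treatment, and P7 after hyperoxia, that is, breathing gas rich in oxygen. Strain, genotype and oxygen level were not given in the sources used here, and no group carried a named allele or agent other than hyperoxia. The table held 5480 cells with 16 subtype labels, of which the mesenchymal sort gave 5409, a CD31 sort (endothelium) 69 and a CD45 sort (leukocytes) 2. After 93 cells in well columns 1 to 8 of 1 male hyperoxia plate were left out, 5387 cells remained. The cells had 39358 to 5177020 reads, with a median of 774305. All 11 mesenchymal markers were detected in every mouse, with summed levels of 9253 to 29659 CPM (reads of a gene per 1000000 reads of the library).

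Promoters of the members are shown first because most hold letters that factors acting downstream of interferon or inflammatory signals are known to read. RefSeq promoters of the GRCm38.p6 build, 250 bases before to 50 bases after each start, were matched for all 9 members and searched on both strands. The interferon-stimulated response element, searched as 2 GAAA half-sites with 2 bases of any kind between them, was found in 3.44% of 32851 promoters, the gamma-activated site (TTCNNNGAA) in 8.30%, and a kappa B core (GGGATTCCC) in 0.353%. Capitals mark the kappa B core in the first pair of stretches and the response element in either orientation in the rest.
H2-K1, chr17:34000438-34000467, minus strand: cccagggctgGGGATTCCCcatctccacag
H2-D1, chr17:35262914-35262943, plus strand: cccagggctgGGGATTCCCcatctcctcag
B2m, chr2:122147538-122147567, plus strand: ataagaacatGAAACTGAAAatgggaaagt
Ifit1, chr19:34640775-34640823, plus strand: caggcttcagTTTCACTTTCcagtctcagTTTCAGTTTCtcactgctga
Ifit3, chr19:34583363-34583426, plus strand: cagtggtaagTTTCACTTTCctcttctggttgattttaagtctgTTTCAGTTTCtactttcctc
Isg15, chr4:156200865-156200906, minus strand: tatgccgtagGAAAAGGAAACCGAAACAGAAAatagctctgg
Bst2, chr8:71537577-71537612, minus strand: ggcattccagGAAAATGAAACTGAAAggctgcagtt
The H2-D1 stretch lies in the first exon of a longer GENCODE transcript. H2-K1 and H2-D1 shared 29 of these 30 bases. The 2 listed promoters of H2-K1 overlap and hold the same single kappa B core. Neither H2-K1 nor H2-D1 had a match to the response element or the gamma-activated site in this window. Ifit1, Ifit3 and Bst2 each held 2 response elements before the start, Isg15 held 3 that overlap one another, and B2m held 1. In Bst2 a gamma-activated site overlapped the first response element. Ifitm3 had 2 response elements and 1 gamma-activated site, all after its start, and Irf7 had no match to any of the 3 motifs in this window. The letters are descriptions of sequence and were not tested against the levels.

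The members lie on 6 chromosomes in the GENCODE M21 annotation of GRCm38. H2-K1 (chr17:33996017-34000347) and H2-D1 (chr17:35262730-35267499) lie in the major histocompatibility complex, and Ifit3 (chr19:34583531-34588731) and Ifit1 (chr19:34640871-34650009) lie close to each other. B2m is at chr2:122147686-122153083, Isg15 at chr4:156199424-156200818, Ifitm3 at chr7:141009586-141010770, Irf7 at chr7:141262706-141266481 and Bst2 at chr8:71534255-71537456. Near-identical copies make some counts uncertain. Of all 50-base windows in the transcripts of Ifit3, 51.2% also occurred in Ifit3b, so the split of reads between these genes depends on the counting. For H2-D1 and H2-K1, 12.8% and 9.63% of windows occurred in other genes, and for B2m, Irf7 and Bst2 none did.

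Over all cells of a mouse, every member was higher at P21 than at P7, with no overlap between the 2 mice of each age. H2-K1 stood at 2.46 and 4.21 CPM in the female and male at E18.5, then 10.8 and 14.5 at P1, 24.9 and 19.5 at P7, and 309 and 357 at P21. H2-D1 stood at 15.0 and 7.95 CPM at E18.5, then 49.6 and 55.7 at P1, 62.3 and 51.1 at P7, and 526 and 570 at P21. The 2 mice of an age lay close together for both heavy chains, and the P21 mice stood far above all younger mice in air. B2m, the light chain, was already abundant before birth, at 356 and 342 CPM, and reached 594 and 520 at P1, 414 and 535 at P7, and 750 and 1164 at P21. Over the 2 mice, the P21 level relative to P7 was 15.0-fold for H2-K1, 9.66-fold for H2-D1 and 2.02-fold for B2m. In the 2 males alone, which were sequenced almost wholly in the same run, the P21 to P7 ratios were 18.3-fold, 11.2-fold and 2.18-fold. Of the 13604 genes that averaged 1 CPM or more in either age, 21.6% were higher and 35.3% lower at P21 without overlap.

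The genes of the membrane antiviral proteins, Ifitm3 and Bst2, had the same order of ages. Ifitm3 stood at 397 and 483 CPM in the female and male at E18.5, then 1104 and 932 at P1, 487 and 657 at P7, and 907 and 1974 at P21. Bst2 stood at 4.06 and 3.67 CPM, 23.9 and 21.5, 10.4 and 8.69, and 37.1 and 50.4 at the same ages. Both genes were higher at P1 than at E18.5, lower at P7 than at P1 and higher again at P21 than at P7, each time with no overlap between mice. Among all genes, 22.5% were higher at P1 than at E18.5 and 18.6% lower at P7 than at P1 without overlap. The male at P21 had more than the female of both.

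The induced effectors and Irf7 were scarce before P21. Ifit3 had 2.53 and 0.340 CPM at E18.5, then 6.65 and 0.283 at P1, 3.33 and 11.7 at P7, and 49.2 and 54.3 at P21. Ifit1 had 1 read in the E18.5 female and 2 in the P7 female, 0.905 and 0.534 CPM in the males of those ages, 4.59 and 3.0 CPM at P1, and 17.8 and 17.7 CPM at P21. Summed over all cells, the P21 mice lay close together for both genes, whereas the younger mice of 1 age differed up to many-fold. Within cell classes the P21 mice differed in Ifit1. The female had more in adventitial fibroblasts (42.9 against 21.6 CPM). The male had more in alveolar fibroblasts (26.4 against 5.23 CPM) and pericytes (22.7 against 5.27 CPM). Irf7 had 5.59 and 6.50 CPM at E18.5, then 7.58 and 5.44 at P1, 2.84 and 2.76 at P7, and 23.3 and 30.0 at P21. Isg15 stayed below 1 CPM in every mouse, with its highest level, 0.820 CPM, in the P21 female. Per kilobase of exon, the P21 levels ranked Ifitm3 (2124 ± 1113 CPM per kb, SD, n = 2), B2m (1113 ± 341), H2-D1 (213 ± 12.3), H2-K1 (113 ± 11.6), Bst2 (48.4 ± 10.4) and Ifit3 (29.7 ± 2.05). Irf7 (7.06 ± 1.25), Ifit1 (6.69 ± 0.00905) and Isg15 (0.927 ± 0.223) followed. Ifitm3 stood above B2m in each P21 mouse, at 1337 against 872 CPM per kb in the female and 2912 against 1354 in the male. Irf7 was below Ifit1 in the female (6.18 against 6.69) and above it in the male (7.94 against 6.68). The order was not tested.

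**Figure D1:**
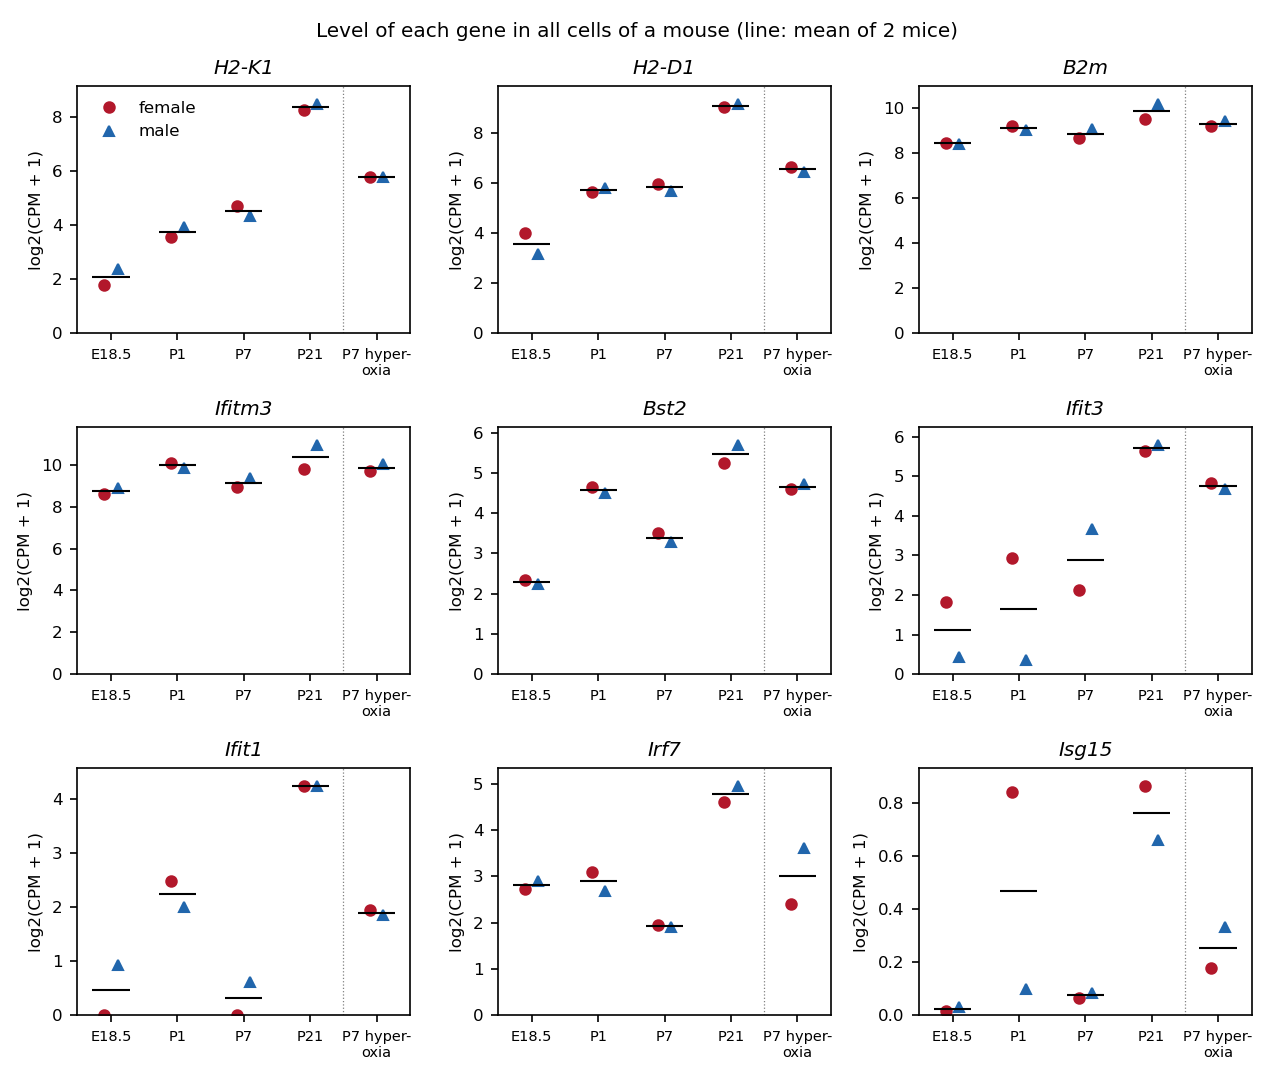
Level of each member over all cells of a mouse (log2(CPM + 1)) by group, with 1 point for the female and 1 for the male and a line at the mean of both. On the CPM scale, H2-K1 lies between 2.46 and 24.9 CPM up to P7 in air and at 309 and 357 CPM at P21.

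To compare like cells, reads were summed over the cells of a mouse within a class, where early and mature subtypes of the same name were joined. Within all 5 classes present at both ages, H2-K1, H2-D1 and B2m were higher in both P21 mice than in both P7 mice. In alveolar fibroblasts, which support the gas exchange surface, H2-K1 stood at 13.8 and 6.51 CPM in the female and male at P7 and at 283 and 371 at P21. In adventitial fibroblasts, which wrap bronchi and vessels, it stood at 98.3 and 38.9 CPM and then at 355 and 453. In airway smooth muscle it went from 17.1 and 20.9 CPM to 405 and 180, in vascular smooth muscle from 75.6 and 63.7 to 211 and 358, and in pericytes, the mural cells of capillaries, from 11.8 and 19.7 to 178 and 321. The ratio of the P21 to the P7 mean was lowest in vascular smooth muscle (4.08-fold) and adventitial fibroblasts (5.89-fold), the classes with most H2-K1 at P7, and highest in alveolar fibroblasts (32.2-fold). At P21 the class means lay within 250 to 404 CPM, and the ranges of neighbouring classes in that order overlapped.

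H2-D1 was likewise higher at P21 in each class. Its P7 and P21 levels were 21.5 and 38.4 against 423 and 404 CPM in alveolar fibroblasts, 142 and 74.8 against 661 and 781 in adventitial fibroblasts, and 102 and 50.7 against 476 and 676 in airway smooth muscle. In vascular smooth muscle they were 129 and 54.8 against 564 and 532 CPM, and in pericytes 30.4 and 25.8 against 513 and 310. B2m differed less: its P21 to P7 ratio ran from 1.53-fold in vascular smooth muscle to 3.30-fold in airway smooth muscle, where it stood at 333 and 360 CPM at P7 and 737 and 1550 at P21. Counted over all 9 members and 5 classes, 33 of 45 pairs were higher at P21 without overlap and 0 were lower. Of the 40 pairs with a mean of at least 1 CPM at either age, 32 were higher. Among all genes by class with that mean, 17.8% were higher and 25.6% lower.

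**Figure D2:**
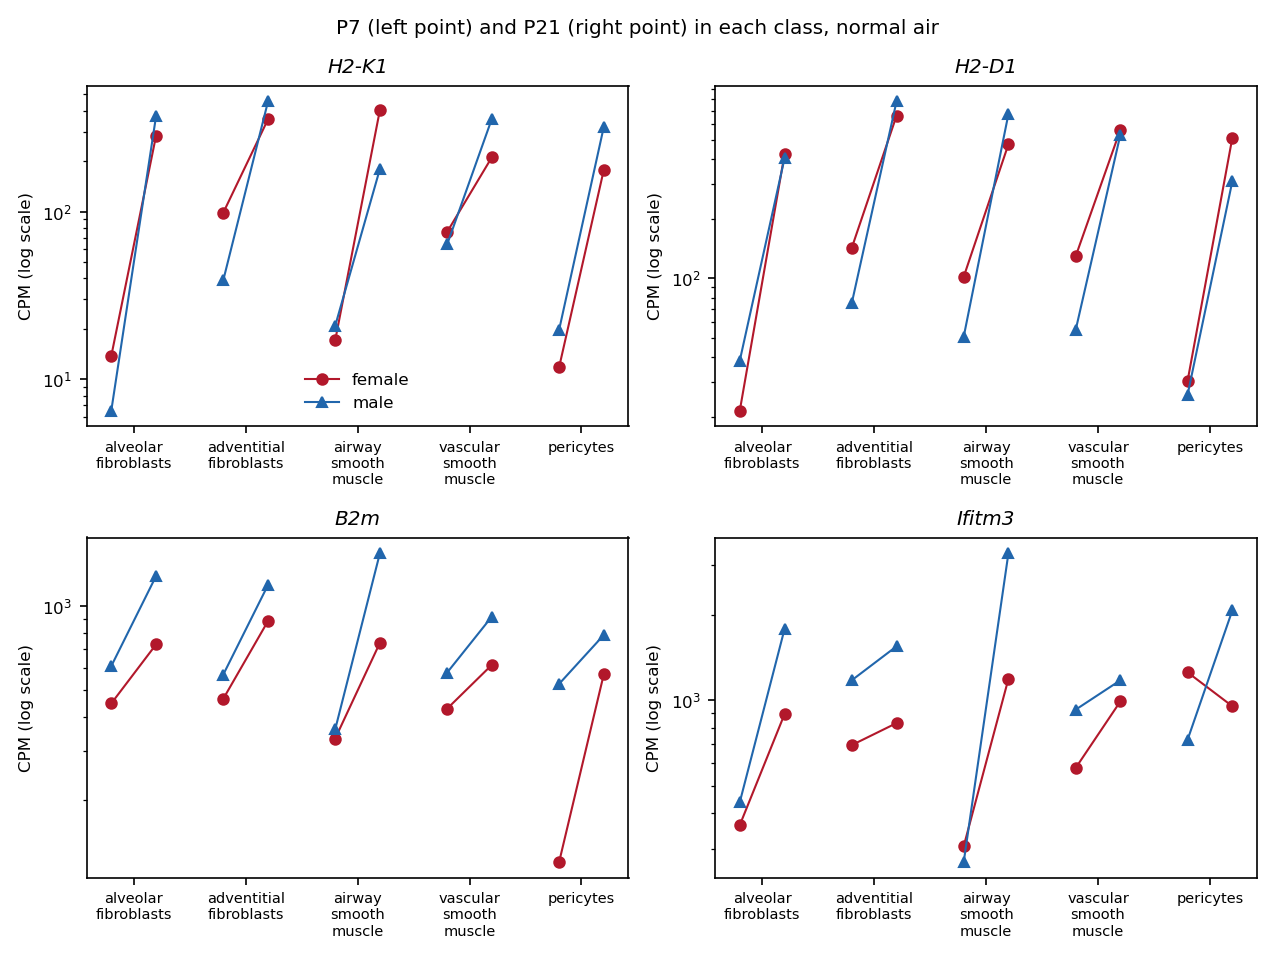
Level of H2-K1, H2-D1, B2m and Ifitm3 (CPM, logarithmic axis) at P7 and P21 in 5 cell classes, with 1 point per mouse and a line joining the mice of 1 sex, which pairs no animals. H2-K1, H2-D1 and B2m are higher in both P21 mice in all 5 classes, whereas Ifitm3 overlaps in adventitial fibroblasts and pericytes.

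The change with age was tested on the mean over the 5 classes of log2(CPM + 1) in each mouse, with limma across all genes and Benjamini-Hochberg adjustment. This scale understates the change of scarce genes. From P7 to P21, 238 of 13062 genes rose (1.82%) and 292 fell (2.24%), with a median log2 change of -0.16. Of the members, 8 entered the test and Isg15 was too scarce, 5 rose, none fell, and the median over the 8 was 2.16. H2-K1 rose by 3.45 on the log2 scale (SE 0.41, adjusted p = 8.69e-05) and H2-D1 by 3.20 (SE 0.43, adjusted p = 2.94e-04). B2m rose by 1.10 (SE 0.30, adjusted p = 0.0473), Ifitm3 by 1.18 (SE 0.29, adjusted p = 0.0314) and Ifit1 by 2.17 (SE 0.56, adjusted p = 0.0376). Irf7 (2.15, adjusted p = 0.0504), Ifit3 (2.19, adjusted p = 0.0665) and Bst2 (1.84, adjusted p = 0.0662) were also positive and missed the threshold.

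With 2 mice a group, the calls leaned on single animals. H2-K1 stayed past the threshold when any 1 of the 6 mice in this fit was left out (adjusted p from 4.18e-08 to 0.0441), and H2-D1 reached 0.0961 without the P21 female. B2m (adjusted p from 0.0839 to 0.355) and Ifit1 (0.169 to 0.269) were lost without any 1 of the P7 or P21 mice, and so was Ifitm3 (0.0540 without the P21 female, 0.334 without the P21 male, 0.0934 without the P7 female and 0.198 without the P7 male). Scaling by TMM turned the split of calls from 44.9% to 69.6% higher, moved the median of all genes to 0.04, and put all 8 tested members past the threshold. The share of all genes called under TMM is not given beside this count, so the count does not set the members apart. With no filter on low values, 0 of 8 members and 0 genes in all were called, and H2-K1 had an adjusted p of 0.191.

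**Figure D3:**
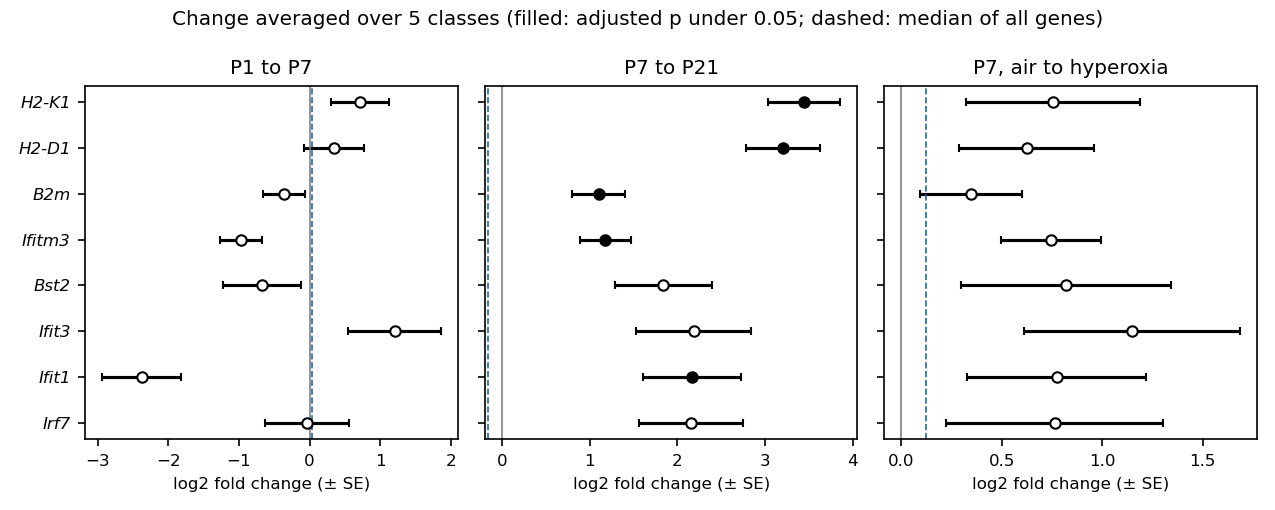
Change of each tested member on the log2(CPM + 1) scale, averaged over 5 classes, for P1 to P7, P7 to P21 and P7 in air to P7 in hyperoxia, with bars of 1 SE. Filled points are past the adjusted p of 0.05, and the dashed line is the median of all genes. All 8 values are above 0 from P7 to P21, from 1.10 for B2m to 3.45 for H2-K1.

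Tested class by class with edgeR's quasi-likelihood test, 3 members passed from P7 to P21, all of them in airway smooth muscle. There H2-K1 rose by 4.18 (SE 0.72, adjusted p = 0.0340), B2m by 2.03 (SE 0.38, adjusted p = 0.0474) and Ifitm3 by 3.19 (SE 0.48, adjusted p = 0.0188) on the log2 scale, where 0.649% of 13401 genes rose. Ifitm3 in this class stood at 305 and 269 CPM at P7 and at 1193 and 3317 at P21. H2-D1 (3.38, adjusted p = 0.0756), Ifit3 (adjusted p = 0.186), Irf7 (adjusted p = 0.624) and Bst2 (adjusted p = 0.619) were positive there and missed the threshold, and Ifit1 and Isg15 were too scarce to test. The 3 calls were lost without either P7 mouse, or when only the 4 P7 and P21 mice entered the fit. In the other 4 classes no member passed in edgeR, where 0.0702% of genes were called in alveolar fibroblasts, 0.138% in adventitial fibroblasts, 0.0504% in pericytes and 0.0569% in vascular smooth muscle. Over all 120 tested pairs of member, class and age step, 4 passed and 28 had an unadjusted p under 0.05. Among all genes, those with an unadjusted p under 0.05 ran from 368 to 3280 of 15661. Both extremes were in alveolar fibroblasts, from P1 to P7 and from E18.5 to P1. There 0 genes passed in the first step, and 949 rose and 10 fell in the second. From P7 to P21 in alveolar fibroblasts, edgeR's test gave H2-K1 5.62 (SE 2.20, adjusted p = 0.669) and Ifitm3 2.01 (SE 0.38, adjusted p = 0.219). This fit also held thin E18.5 libraries of 14 and 24 cells, in which H2-K1 had 87.7 CPM from 1 cell in the female and no read in the male. When either E18.5 mouse was left out, more pairs of member and step passed in alveolar fibroblasts. Calls among all genes in those fits were not set beside them, so this does not set the members apart from other genes.

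Other genes of the pathway were followed through lists whose choice is described with the processing. Of the other interferon-stimulated genes, 39 of 47 were tested in the class average from P7 to P21, 11 rose, 0 fell, and the median was 1.61. They included Gbp2, a guanylate-binding protein (3.98), the chemokine Cxcl10 (3.77), Rtp4 (3.74), the oligoadenylate synthetase-like Oasl2 (3.30), Lgals3bp (3.23) and the RNA sensor Ifih1 (2.86). Cxcl10, for example, had 2.03 and 1.31 CPM at P7 and 82.3 and 97.2 at P21. Of 7 other class I heavy chains tested, the non-classical H2-T23 (3.26) and H2-M3 (1.91) rose and none fell. Of 13 genes of peptide supply and loading, Tapbp, which holds class I at the peptide transporter, rose by 1.48, with a list median of 1.24. Of 15 receptor and signalling genes, the interferon receptor chain Ifnar2 rose by 1.55. Of 7 negative regulators 0 passed in limma, and 4 had an unadjusted p under 0.05, as did 2621 of all 13062 genes. Of 10 interferons listed, Ifng and Ifnk were in the table, neither passed the filter, and neither exceeded 0.803 CPM in a mouse. In airway smooth muscle, Irf1, a transcription factor of class I genes, rose by 3.90 (edgeR adjusted p = 0.00512).

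Reads of other cell types were low and their part in these results was not tested. The 16 immune markers summed to 45.2 and 39.6 CPM at P7 and to 28.6 and 108.9 at P21, so the P21 female had fewer such reads than either P7 mouse and the male had more. Most of the P7 sum was Lyz2, a lysozyme of myeloid cells. Without it, a split made after the values were seen, the other 15 markers summed to 9.07 and 13.5 CPM at P7 and to 14.5 and 92.5 at P21. The MHC class II genes among them (H2-Aa, H2-Ab1, H2-Eb1 and Cd74) thus moved with the members, from 2.34 and 3.32 CPM at P7 to 6.60 and 85.6 at P21. In the P21 male, H2-Aa was read in 3 cells and H2-Ab1 in 8. No immune marker was at 0 in either P21 mouse, while Cd52 and S100a8 were at 0 in the P7 female. The 10 endothelial markers summed to 119 to 196 CPM over all mice, all above 0, and 2 of 6 tested rose from P7 to P21. Ramp2 was the largest part of this sum, at 140 and 165 CPM at P7 and 66.9 and 89.8 at P21. Of the others, looked at after the values were seen, Pecam1, Kdr, Cldn5, Esam and Plvap were higher in both P21 mice. Esam, for example, went from 10.1 and 13.1 CPM to 36.3 and 65.0. Emcn was lower, and Cdh5, Egfl7 and Tie1 overlapped. The 11 epithelial markers summed to 35.5 to 108 CPM and the 5 erythroid markers to 0.966 to 6.85 CPM.

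From E18.5 to P1, most members were higher after birth, and 2 tests of single members passed. Over all cells, 7 of 9 members were higher at P1 without overlap and 0 were lower, the ranges of Ifit3 and Irf7 overlapped, and 22.5% of all genes were higher and 31.5% lower. In the 3 classes present at both ages, 12 of 26 pairs of member and class with a mean of at least 1 CPM at either age were higher and 1 was lower, against 29.7% and 14.4% of all gene by class pairs with that mean. Ifitm3 was higher in all 3 classes, whereas Ifit3 overlapped in all 3. From the fibroblast precursors of E18.5 to the alveolar fibroblasts of P1, all 9 members were positive in edgeR's test with a median of 1.50, where the median of all genes was -0.02 and 0.125% rose. None of these 9 passed the threshold, and unadjusted p was under 0.05 for H2-K1 (1.21), H2-D1 (2.16), B2m (0.83), Ifitm3 (1.24) and Bst2 (2.92). Among all genes, 941 of 15988 had an unadjusted p under 0.05.

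Tested within a class over the same step, 8 of 9 members were positive in alveolar fibroblasts, in adventitial fibroblasts and in pericytes. The median of the members was 2.50 in alveolar fibroblasts, where the median of all genes was 1.35 and 6.06% of genes rose, so the scale there was shifted for all genes. It was 1.37 in adventitial fibroblasts and 1.34 in pericytes, where the medians of all genes were 0.15 and 0.07 and 0.042% of genes rose in pericytes. In alveolar fibroblasts and pericytes 0 members passed in edgeR, and 1 and 3 had an unadjusted p under 0.05. Among all genes, 3280 of 15661 and 642 of 11894 did. H2-K1 had no read in either E18.5 library of adventitial fibroblasts and 9.65 and 46.9 CPM at P1, 442-fold above a floor of 3 reads over the group. That floor covers counting error only and not the sampling of 26 and 29 cells. The difference in H2-K1 passed edgeR's test (adjusted p = 0.0245, with 0.158% of 15231 genes rising). Its call was lost without the E18.5 female or the P21 female, or with only the 4 mice compared. Ifitm3 stood at 316 and 498 CPM in the E18.5 precursors of myofibroblasts and smooth muscle and at 1076 and 1172 in P1 myofibroblasts. That rise of 1.56 (SE 0.28, adjusted p = 0.0381, with 0.644% of 14132 genes rising) was lost without either E18.5 mouse, the P1 male, either P7 mouse or the male hyperoxia mouse, and with only the 4 mice compared.

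Of the pathway lists, 14 genes rose and 0 fell from E18.5 to P1 in alveolar fibroblasts, in the fit with the thin E18.5 libraries. Among all 15661 genes of that fit, 949 rose and 10 fell, with a median log2 change of 1.35. The direction was thus shared by genes outside the lists. The largest were Lgals3bp, Ifi27l2a, Stat2, Tap2, the chain that pairs with Tap1 in the peptide transporter, Usp18, which trims Isg15 from proteins, and Nmi. All 6 had no read in either E18.5 library, so each ratio is given against a floor of 3 reads over the group. That floor covers counting error only. It does not cover the sampling of 14 and 24 cells, so the true ratio can lie below the one given. Lgals3bp had 95.1 and 83.6 CPM at P1, 489-fold above the floor. Ifi27l2a had 52.1 and 29.7 CPM, 211-fold above it, and Stat2 36.3 and 14.3 CPM, 124-fold above it. Tap2 had 21.0 and 26.1 CPM, Usp18 20.0 and 18.5, and Nmi 16.0 and 14.3. Against the far larger libraries of fibroblast precursors, 1 list gene rose, Ifi27l2a, which had 0.108 and 0.434 CPM there (7.44, edgeR adjusted p = 0.0194). From the contractile precursors to myofibroblasts, 91 of 14132 genes rose and 106 fell. Among them the class I-like gene Mr1 fell by 4.10 (edgeR adjusted p = 0.0118), from 82.0 and 106 CPM to 5.13 and 5.27. The interferon-inducible GTPase gene Iigp1 fell by 2.13 (edgeR adjusted p = 0.0122), from 824 and 781 CPM to 207 and 148.

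From P1 to P7, 5 members were lower over all cells without overlap (Ifit1, Isg15, Irf7, Ifitm3 and Bst2) and H2-K1 was higher, where 29.9% of all genes were higher and 18.6% lower. Of 47 pairs of member and class with a mean of at least 1 CPM at either age, 4 were higher and 16 lower, where 20.3% of all gene by class pairs with that mean were higher and 17.6% lower. The lower pairs fell mainly on Ifitm3 (4 of 6 classes), Ifit1 and Bst2 (3 each), and the higher ones were H2-K1 and Ifit3 (2 each). No member passed the class average test for this step, in which 0 genes rose and 11 fell (0.0842%). Unadjusted p was under 0.05 for Ifit1 (-2.38, SE 0.56, adjusted p = 0.217) and Ifitm3 (-0.97, SE 0.29, adjusted p = 0.493), as for 839 of all 13062 genes. Among the other genes of the pathway, Ifitm1, a paralogue of Ifitm3, fell by 1.93 (limma adjusted p = 0.0203) and the feedback inhibitor Socs3 fell by 2.34 (limma adjusted p = 0.0122).

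The age difference could lie in how many cells held a transcript or in how much each held, which summed reads cannot tell apart, so cells were also counted. Each of 5219 cells with enough depth was thinned to 100000 reads, and 168 shallower cells were left out. H2-K1 was read in 7.77% of cells of the P7 female (95% Wilson interval 5.88 to 10.2) and 6.76% of the male (4.95 to 9.18), and in 60.4% (56.1 to 64.5) and 44.4% (38.9 to 50.0) at P21. At E18.5 the shares were 1.64% and 2.81%. H2-D1 was read in 15.9% and 13.9% of cells at P7 and in 73.8% and 51.3% at P21. The P21 male had a lower share than the female for both heavy chains, with a higher CPM. It also had fewer genes per thinned cell (median 1515) than the P21 female (2646) or the P7 mice (2447 and 2347).

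The heavy chains and the effectors differed in how their reads were spread over cells. For H2-K1, the 10 cells with most reads held 58.5% and 62.5% of its reads at P7 and 15.4% and 36.2% at P21. In adventitial fibroblasts, 28.0% and 14.8% of cells had a read of H2-K1 at P7 and 79.9% and 72.9% at P21. In alveolar fibroblasts the shares were 4.76% and 4.35% and then 58.0% and 31.4%. B2m and Ifitm3 were read in 79.8% or more of the cells of every mouse. Ifit1 was read in 4.30% and 3.31% of cells at P21 and Ifit3 in 10.9% and 7.62%, and the top 10 cells held at least 93.8% of Ifit1 reads in every mouse.

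**Figure D4:**
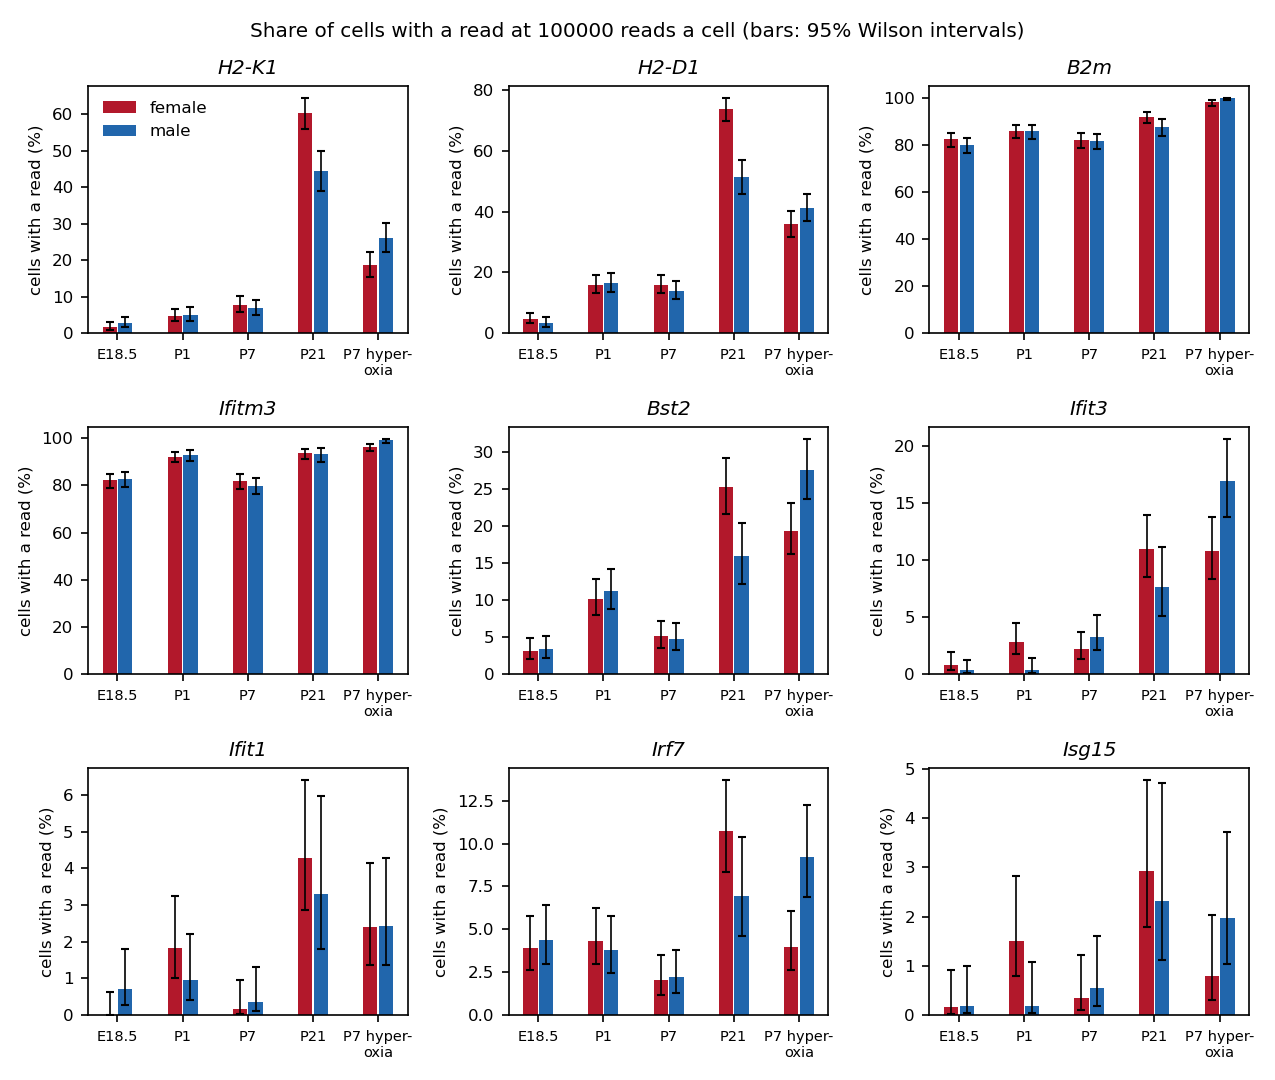
Share of cells of each mouse with at least 1 read of each member after thinning to 100000 reads (percent), with 95% Wilson intervals, which cover counting error only. H2-K1 goes from 7.77% and 6.76% at P7 to 60.4% and 44.4% at P21, while Ifit1 stays at or below 4.30%.

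Cells with reads of several effectors together were rare. Of the 5219 thinned cells, 4660 had no read of Ifit1, Ifit3, Isg15 or Irf7, 489 had 1 of these genes, 50 had 2, 15 had 3 and 5 had all 4. The 20 cells with at least 3 of the 4 made 0.383% (Wilson interval 0.248 to 0.591). They came from both P21 mice, with 7 of 512 cells in the female (1.37%, interval 0.664 to 2.79) and 4 of 302 in the male (1.32%, 0.516 to 3.36), and from both hyperoxia mice, with 1 of 501 (0.200%, 0.0352 to 1.12) and 8 of 455 (1.76%, 0.894 to 3.43). None was found in the 6 mice at E18.5, P1 and P7 in air, whose interval limits ran up to 0.724%. By label, 8 were early adventitial fibroblasts, 6 adventitial fibroblasts, 3 alveolar fibroblasts, 2 early alveolar fibroblasts and 1 a pericyte. When 2 of the 4 genes sufficed, 70 cells qualified (1.34%) and every mouse had some, so their absence from those 6 mice depended on the rule. The P21 mice had 23 of 512 (4.49%) and 12 of 302 (3.97%), and the hyperoxia mice 6 of 501 (1.20%) and 15 of 455 (3.30%). The P1 female had 7 of 602 (1.16%), and the other younger mice in air had 0.169% to 0.351%.

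In these 20 cells, chosen for their effector reads, the mean level was 662 CPM for Ifit3, 489 for Ifit1 and 156 for Irf7. Genes that did not choose them were also read: Oasl2 in 15 of 20 cells (mean 275 CPM) and Rtp4 in 14 (154 CPM). H2-K1 was read in 13 of the 20 and H2-D1 in 16. The leukocyte gene Ptprc had a read in 1 of the 20 cells and the endothelial gene Pecam1 in 4. Over all thinned cells, 38.5% of the 78 cells with Ifit1 also had Ifit3, where 5.12% of all cells had it.

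Classes were compared within an age, each against the mean of the others, with the mouse as a block. At P7, pericytes were higher in Ifitm3 (1257 and 726 CPM, log2 difference 1.02, SE 0.26, edgeR adjusted p = 0.0418, with 4.35% of 14902 genes higher). Pericytes at P7 were also higher in Ifit3 (log2 difference 6.04, adjusted p = 0.0321) and Isg15 (8.31, adjusted p = 0.0135), and adventitial fibroblasts in Ifit3 (5.24, adjusted p = 0.0484, with 4.39% higher). These values rested on few cells: Ifit3 was read in 3 and 5 pericytes and in 3 and 8 adventitial fibroblasts, and Isg15 in 2 and 5 pericytes. At P1, vascular smooth muscle was higher in Ifit1 (6.89, SE 1.43, adjusted p = 0.0435, with 2.04% of 14288 genes higher), where all Ifit1 reads came from 1 cell in each mouse. At P21, Irf7 was higher in pericytes (52.7 and 83.2 CPM, log2 difference 5.23, SE 0.97, adjusted p = 0.0269, with 2.96% of 14529 genes higher), from 9 and 7 cells. Vascular smooth muscle at P21 had no Irf7 read in either of its libraries of 33 and 19 cells (adjusted p = 0.0341, with 0.296% lower). H2-K1, H2-D1 and B2m passed the threshold in no class at any age in this test. Over all ages, 7 of 210 pairs of member and class passed and 45 had an unadjusted p under 0.05. Among all genes, those passing ran from 6 of 14190 (fibroblast precursors at E18.5) to 648 higher and 452 lower of 14902 (pericytes at P7). An unadjusted p under 0.05 was held by 1438 (myofibroblasts) to 3169 (pericytes) of 14902 genes, both at P7.

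Hyperoxia was compared with air at P7. Over all cells, all 9 members were higher in both hyperoxia mice than in both air mice, where 26.8% of 13501 genes were higher and 24.7% lower. H2-K1 stood at 54.3 and 53.7 CPM in the female and male in hyperoxia, against 24.9 and 19.5 in air (2.43-fold), and H2-D1 at 100.4 and 86.8, against 62.3 and 51.1 (1.65-fold). B2m stood at 589 and 690 CPM against 414 and 535. The heavy chain levels in hyperoxia lay above P7 air and far below P21. Ifitm3 stood at 828 and 1065 CPM against 487 and 657, Bst2 at 23.2 and 25.3 against 10.4 and 8.69, and Ifit3 at 27.4 and 24.5 against 3.33 and 11.7. Ifit1 had 2.84 and 2.58 CPM and Irf7 4.27 and 11.3, and Isg15 had 0.131 and 0.259.

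Within 5 classes present in both conditions, 24 of 45 pairs of member and class were higher in hyperoxia without overlap and 1 was lower. Among pairs that averaged 1 CPM or more in a condition, 21 of 37 pairs were higher, against 24.7% higher and 17.6% lower among all gene by class pairs. H2-K1 was higher in alveolar fibroblasts (20.4 and 30.6 against 13.8 and 6.51 CPM), in adventitial fibroblasts (140 and 116 against 98.3 and 38.9) and in myofibroblasts (55.2 and 38.1 against 18.5 and 15.3). In airway smooth muscle (43.1 and 10.7 against 17.1 and 20.9) and vascular smooth muscle (47.4 and 83.1 against 75.6 and 63.7) its ranges overlapped. Ifit3 in alveolar fibroblasts stood at 31.5 and 27.0 CPM in hyperoxia and at 3.05 and 3.60 in air. Bst2 in vascular smooth muscle was the lower pair, with 15.8 and 17.7 CPM in hyperoxia and 52.2 and 21.1 in air.

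**Figure D5:**
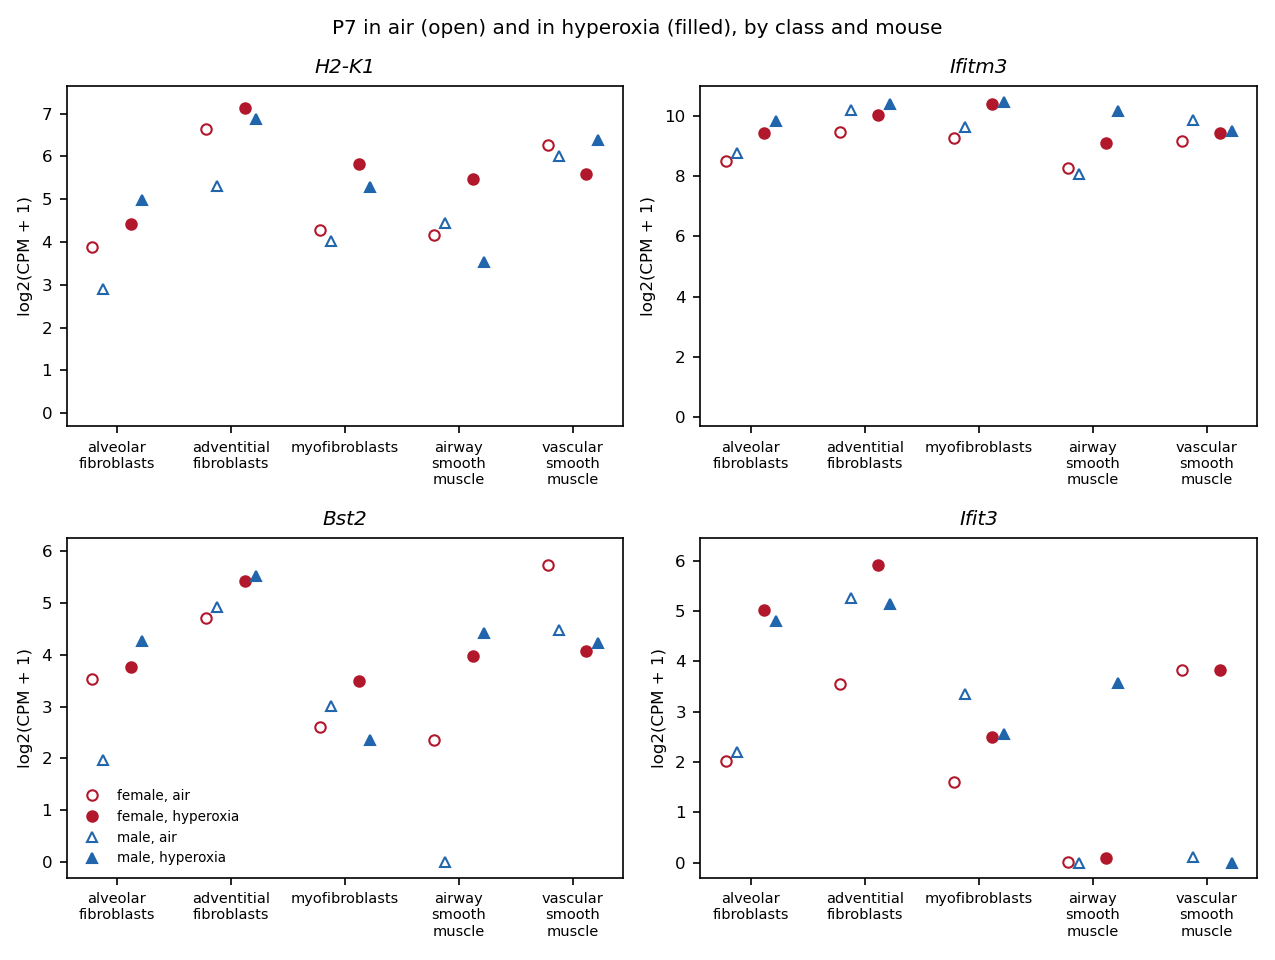
Level of H2-K1, Ifitm3, Bst2 and Ifit3 (log2(CPM + 1)) in 5 cell classes at P7 in air (open) and in hyperoxia (filled), with 1 point per mouse. H2-K1 is above both air mice in alveolar fibroblasts, adventitial fibroblasts and myofibroblasts and overlaps them in both smooth muscle classes.

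No member passed the threshold in hyperoxia. In the class average all 8 tested members were positive with a median of 0.76, where the median of all genes was 0.12 and 223 of 12980 genes rose (1.72%) and 23 fell (0.177%). Unadjusted p was under 0.05 for Ifitm3 (0.75, SE 0.25, adjusted p = 0.130) and Ifit3 (1.15, SE 0.54, adjusted p = 0.336). H2-K1 gave 0.76 (SE 0.43, adjusted p = 0.460), H2-D1 0.62 (SE 0.33, adjusted p = 0.419) and B2m 0.35 (SE 0.25, adjusted p = 0.600). Bst2 gave 0.82, Ifit1 0.77 and Irf7 0.76, with adjusted p from 0.465 to 0.580, and Isg15 was too scarce to test. The direction was not the same in every class. In vascular smooth muscle 2 of 9 members were positive, with a median of -0.40, and relative to alveolar fibroblasts 0 of 9 were, with a median of -1.58. In alveolar and adventitial fibroblasts all 9 were positive, with medians of 1.41 and 0.68. In edgeR's test within each class, 0 of 41 pairs of member and class were called and 3 had an unadjusted p under 0.05. There 0% of genes were called in each of the 5 classes. As a share, genes with an unadjusted p under 0.05 ran from 410 of 15661 (alveolar fibroblasts) to 1200 of 15231 (adventitial fibroblasts). DESeq2 called 1 pair. Whether classes differed in their change was tested with edgeR over all classes at once, which called 0.113% of 15910 genes and no member. In that test Ifitm3 (p = 0.00795, adjusted p = 0.439) and B2m (p = 0.0474, adjusted p = 0.705) had an unadjusted p under 0.05, as did 1111 genes in all. In the pathway lists, Tap1, a chain of the peptide transporter, rose by 2.23 (limma adjusted p = 0.0217), the chaperone Canx by 0.95 (0.0340) and Socs3 by 1.84 (5.04e-04). Of 35 other interferon-stimulated genes tested with limma, 0 rose, 30 were positive and 10 had an unadjusted p under 0.05. Among all genes, 1756 of 12980 had an unadjusted p under 0.05 in this class average.

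Several measures moved with hyperoxia, and their part in these results was not tested. Each hyperoxia mouse was sequenced almost wholly in a run of its own, so run and hyperoxia cannot be told apart. Genes per thinned cell had medians of 3795 and 4477 in hyperoxia and 2447 and 2347 in air. At equal depth H2-K1 was read in 18.6% and 25.9% of cells in hyperoxia and H2-D1 in 35.7% and 41.3%. Bst2 was read in 19.4% and 27.5% against 5.07% and 4.75%, and Ifit3 in 10.8% and 16.9% against 2.20% and 3.29%. The immune markers summed to 67.0 and 48.2 CPM in hyperoxia and to 45.2 and 39.6 in air, or without Lyz2 to 23.1 and 20.4 against 9.07 and 13.5. S100a8 was at 0 in the hyperoxia female, and 2 of 5 tested immune markers and 1 of 7 endothelial markers rose. Ramp2, the largest part of the endothelial sum, was lower in both hyperoxia mice. Cdh5, Kdr, Cldn5, Egfl7, Emcn, Tie1 and Plvap were higher in both, and Pecam1 and Esam overlapped. Plvap, for example, stood at 10.5 and 17.2 CPM in hyperoxia and at 6.90 and 4.37 in air. At P7 in air the 2 mice also came from different runs, and the females at P7 and P21 came from different runs. The step from E18.5 to P1 lies almost wholly within 1 run for either sex, and the later age steps do so for the males alone.

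The likeness of the members to each other and to other genes was described over the 62 libraries of a class and mouse with at least 10 cells, which share mice, runs and depth. On log2(CPM + 1), H2-K1 and H2-D1 had a Pearson r of 0.83, H2-K1 and B2m 0.54, and Ifit1 and Ifit3 0.44. Isg15 and Irf7 had -0.09. Of 9435 other genes, those most like the mean of H2-K1, H2-D1 and B2m were Mamdc2 (0.75), the clock gene Nr1d1 (0.75), the complement gene C4b (0.71), Ecm1 (0.71) and the extracellular superoxide dismutase Sod3 (0.70). Those most like the mean of the other 6 members were Itm2b (0.72), the complement protease C1s1 (0.71), Cst3 (0.69), Rtp4 (0.69) and Xaf1 (0.68).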

How the data were processed

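The authors deposited raw read counts per gene and cell, without molecular identifiers. STAR 2.5.2b and HTSeq 0.10 are named per the submitters' processing notes with no role stated, and the build named there, GRCh38, is a human one, so the build behind the counts was not settled. Strand handling was not given in the sources used here, and the table held no mitochondrial gene. Mice had 294154721 to 671766116 reads. Each deposited sample is 1 cell, so the replicate is the mouse (n = 2 per group); no source used here says whether mice of a group were littermates. Well columns 1 to 8 of plate 2 of the male hyperoxia run were left out, a choice taken over from earlier results of these data: they held 44 of the 55 cells labelled Male hyperoxic fibroblast. Keeping them moved no member count by over 1.5 times.

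Cells took their class from the submitters' subtype labels, and counts were summed per mouse and class with at least 10 cells. Sums were tested with edgeR 4.0.16 (TMM, filterByExpr, glmQLFit, two-sided, terms for group and sex; mouse as block between classes). The mean over 5 classes of log2(CPM + 1) was tested with limma 3.58.1 with trend. Fits ran on all genes, with Benjamini-Hochberg adjustment and a threshold of 0.05, and were tested on simulated data. "Rose" and "fell" refer to that threshold. Shares of cells were taken after thinning to 100000 reads, and intervals and floors (3 reads) cover counting error only. No doublet caller was run. Sequences came from RefSeq promoters (GRCm38.p6) and GENCODE M21. Members and lists were chosen with earlier results of these data known. All 9 members were to be named in every comparison; in tests within and between classes, only those past the threshold or singled out by an unadjusted p are named, with counts for the rest. From the lists, genes past the threshold with at least 10 CPM in a group are named, up to 6 a comparison by size, beside Ifih1, H2-M3, Tapbp and Ifnar2 in the class average. Alternatives (DESeq2 1.42.0, other scalings, filters and pseudocounts, left-out mice) are given with the closing observations. Figures used matplotlib 3.10.9.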

Additional observations from a re-analysis of the deposited data

Results flagged for a closer look

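The 93 cells of the male hyperoxia plate that were left out of every comparison, 44 of them among the 55 cells labelled Male hyperoxic fibroblast, were read separately as 1 pool of 115983897 reads. They are listed here because 8 of the 9 members stood above both P7 mice in air in cells outside the comparisons. In this pool H2-K1 stood at 85.3 CPM and H2-D1 at 82.2 CPM, against 53.7 and 86.8 CPM in the kept cells of the same mouse. Ifit1 stood at 23.6 CPM, against 2.58 CPM in the kept cells of that mouse, 2.84 CPM in the hyperoxia female and at most 0.534 CPM in P7 air. Ifit3 stood at 16.8 CPM, Irf7 at 9.02 CPM, Isg15 at 0.198 CPM, Ifitm3 at 669 CPM and Bst2 at 22.7 CPM. Of these, Ifit3, Irf7, Isg15, Ifitm3 and Bst2 were below the kept cells of the same mouse. B2m, at 434 CPM, lay within the range of P7 air (414 to 535 CPM). The pool is 1 sample, so none of these differences was tested.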

How the results depend on the processing

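No member called in the main fits changed sign under another setting in which it was tested. Counts have no direction to reverse. Counts are pairs of member and step (or class) past the threshold. The main fits tested 120 pairs by age, 16 from the precursors, 41 in hyperoxia by class and 210 between classes. The counts below stand without the share of all genes called under each setting, so they do not set the members apart from other genes. DESeq2 called more than edgeR: 3 against 0 by age in alveolar fibroblasts, 5 against 1 in adventitial fibroblasts, 7 against 0 in pericytes, 5 against 3 in airway smooth muscle, 2 against 0 in vascular smooth muscle, 1 against 0 in myofibroblasts, 4 against 1 from the precursors, 1 against 0 in hyperoxia by class, and 8 against 0, 7 against 1, 11 against 4 and 9 against 2 between classes at E18.5, P1, P7 and P21. With only the 4 mice compared, the counts were 2 in alveolar fibroblasts, 0 in adventitial fibroblasts, 0 in airway smooth muscle, 1 in vascular smooth muscle and 3 from the precursors. With no filter on low counts they were 1 in pericytes, 2 from the precursors and 2 between classes at P1. Libraries of at least 20 cells gave 6 in alveolar fibroblasts, and leaving out both thin E18.5 libraries, chosen after seeing the data, gave 2. The class average by age went from 5 to 3 with a pseudocount of 0.1, 0 with no filter and 8 with TMM. The share of cells with interferon-gene reads went from 0.383% to 1.34% when 2 of the 4 genes sufficed. Leaving out 1 mouse at a time gave 0 to 6 in alveolar fibroblasts, 0 to 2 in adventitial fibroblasts, 0 to 3 in airway smooth muscle, 0 to 1 from the precursors, 1 to 8 in the class average by age and 0 in the other results so tested. For the difference of the change in hyperoxia between classes, leaving out a mouse was added after seeing the data. Between classes at 1 age no mouse was left out, since the 1 mouse remaining leaves no spread between mice. The cause of these shifts was not tested.

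The letters F and M that the groups share mark sex and pair no animals. Without this replicate block, that is, without the term for sex, the counts were 1 in alveolar fibroblasts, 2 from the precursors and 6 in the class average by age. Without the mouse as block, 2 pairs passed between classes at P1. Leaving out the block moved no other count by over 1.5 times. These counts also stand without the share of all genes called, so they do not set the members apart from other genes.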

Other observations

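Some partners of the members in the pathway lists had age courses of their own; the genes in this paragraph were chosen after their values were seen. Ifitm1, the paralogue next in kind to Ifitm3, stood at 412 and 406 CPM in the female and male at E18.5, then 534 and 458 at P1, 82.3 and 75.2 at P7, and 113 and 307 at P21. Ifitm1 thus had its highest levels around birth, where Ifitm3 had its highest mean at P21. Socs3, which turns off cytokine signalling, stood at 390 and 417 CPM at E18.5, then 383 and 424 at P1, 90.8 and 56.0 at P7, 161 and 374 at P7 in hyperoxia, and 201 and 108 at P21. Irf1 stood at 123 and 129 CPM at P7 in air, 68.0 and 72.0 in hyperoxia and 441 and 259 at P21. In hyperoxia Irf1 was thus lower in both mice, as were 24.7% of genes without overlap, while the 9 members were higher.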
